A study of Mus musculus with 6 samples.

Results

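Carbonic anhydrases, the enzymes that interconvert carbon dioxide and bicarbonate, were examined in sinoatrial node (SAN) tissue of HCN4FEA and WT mice. The genes Car2, Car3, Car4, Car8 and Car14 were named for this purpose, and a gene counted as measured when the platform annotation gave a probe set its symbol and no other. By this rule 4 of the 5 genes were found, on 5 probe sets, among 22180 genes measured in all. Car3 has 2 probe sets and Car2, Car4 and Car8 have 1 each. The 1 probe set that carries Car14 also carries Aph1a, so no value is given for Car14. The genes were selected on earlier results of the same HCN4FEA against WT comparison on these arrays. Their differences between genotypes are therefore a description, with no p-value.

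HCN4FEA mice are a global knockin line whose HCN4 pacemaker channel carries amino acid exchanges in its cyclic nucleotide-binding domain and C-linker and no longer responds to cAMP. WT mice carry the unmodified channel, and both genotypes share a mixed background of the strains 129/SvJ and C57BL/6 N. Dissected SAN tissue of adult animals was profiled on 6 arrays, 3 HCN4FEA and 3 WT, with no treatment in either genotype. The sources used here state neither the exact age nor the number of mice behind each array, and the spread between arrays may be partly technical.

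Hydration of carbon dioxide sets free a proton and a bicarbonate ion, and the family places this reaction at several sites of the cell. Car2 and Car3 work in the cytosol, Car4 and Car14 are held in the plasma membrane with the active site facing outwards, and Car8 is a related protein that lacks the hydratase activity. In heart muscle these enzymes act beside bicarbonate exchangers and cotransporters, proton exchangers and lactate carriers, which together hold the pH of the beating cell.

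The values are log2 signals after RMA, a procedure that corrects the background and brings all arrays to one distribution. Array medians over the 25341 probe sets with a symbol ran from 2.44 to 2.51, and the correlation between pairs of arrays was 0.983 to 0.991 over these probe sets. Signals of 1405 olfactory and vomeronasal receptor probe sets served as a background level, with a 99th percentile of 2.53, and all 5 probe sets of the measured members lay above it on all 6 arrays. Atrial muscle genes such as Nppa (11.6 in HCN4FEA and 11.6 in WT) and pacemaker genes such as Tbx3 (6.03 in HCN4FEA and 5.87 in WT) were present, as the tissue label implies. HCN4FEA 3 and WT 1 stood apart in neuron markers, with list means of 4.79 and 4.18, against 2.13 to 2.45 on the other 4 arrays. The labels give all animals as male, yet the female-specific transcript Xist averaged 9.01 in HCN4FEA and 9.24 in WT, and Y-linked Eif2s3y, Kdm5d and Uty averaged 1.40, 1.39 and 1.27 in HCN4FEA, against 1.36, 1.42 and 1.32 in WT. As this holds for every array, no result could be given without the arrays concerned.

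Car3 had the largest difference of the measured members. It is a cytosolic carbonic anhydrase of low activity that is abundant in fat, in slow skeletal muscle and in rodent liver. On probe set 17396152 it had log2 values of 6.84, 4.79 and 7.62 on HCN4FEA 1, 2 and 3, against 8.16, 8.37 and 8.05 on WT 1, 2 and 3. All HCN4FEA values lay below all WT values, and the closest pair was 0.43 apart. The mean was 6.42 ± 1.46 in HCN4FEA and 8.19 ± 0.17 in WT (SD, n = 3 each), a log2 difference of -1.78, so that the HCN4FEA signal was 29.2% of WT. In tissue of many cell types, fewer cells of a kind and less RNA per cell cannot be told apart.

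The second Car3 probe set, 17404191, gave the same order of arrays within HCN4FEA. Its log2 values were 7.64, 5.71 and 8.22 on HCN4FEA 1, 2 and 3, against 8.90, 8.76 and 8.40 on WT 1, 2 and 3. The genotypes did not overlap here either, although HCN4FEA 3 came within 0.18 of the lowest WT array. The mean was 7.19 ± 1.31 in HCN4FEA and 8.69 ± 0.26 in WT (SD, n = 3 each), a log2 difference of -1.49 or 35.5% of the WT signal. Both probe sets follow the same RNA samples and are not independent measurements.

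The size of the Car3 difference was uneven across the HCN4FEA arrays. On probe set 17396152 Car3 was at 39.2% of the WT mean on HCN4FEA 1, at 9.46% on HCN4FEA 2 and at 67.2% on HCN4FEA 3. On probe set 17404191 these shares were 48.5%, 12.7% and 72.3%. HCN4FEA 2 thus stood lowest by a wide margin on both, and HCN4FEA 3 lay nearest to WT. Without HCN4FEA 2 the log2 differences were -0.96 and -0.76, and without HCN4FEA 3 they were -2.38 and -2.01. Without HCN4FEA 3 and WT 1, the arrays high in neuron markers, they were -2.39 and -1.90. The SD of Car3 within HCN4FEA was larger than that of 99.9% (17396152) and 99.8% (17404191) of the 8177 brighter probe sets (1 symbol and a mean of 4 or more on the log2 scale). Within WT it was larger than that of 55.8% and 80.6% of them.

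**Figure D1:**
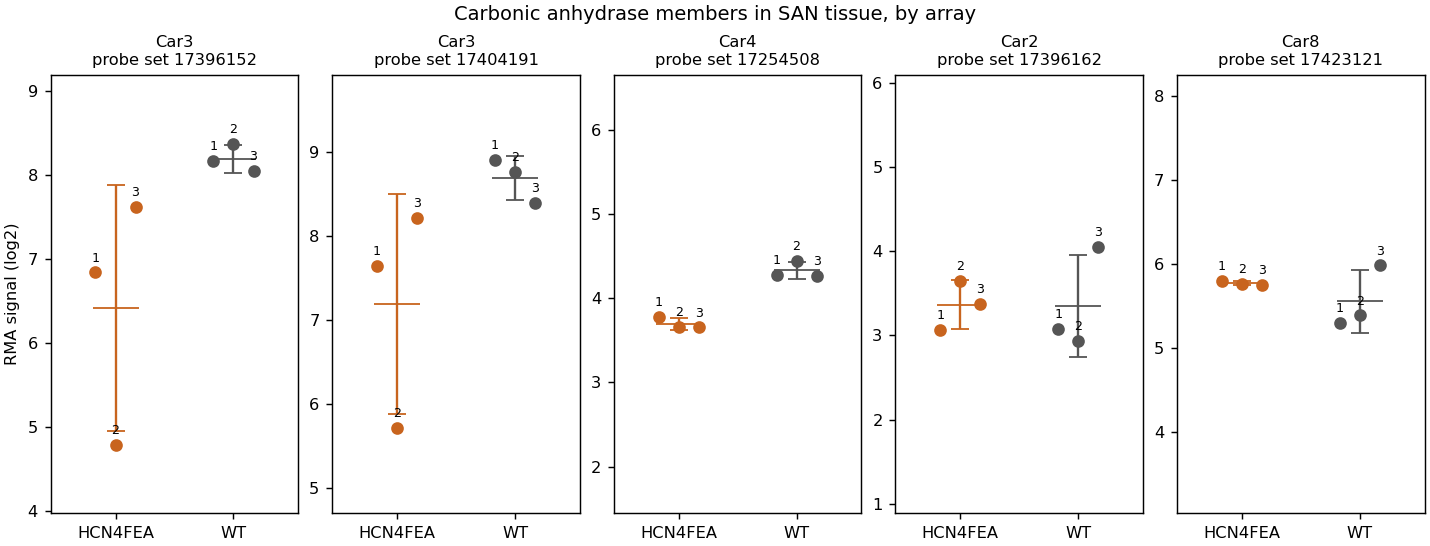
RMA signal (log2, vertical axis, with the same span in each panel) of every probe set of Car3, Car4, Car2 and Car8 in HCN4FEA and WT SAN tissue. Points are single arrays with their number, wide bars the mean of 3 arrays and error bars the SD. Car3 spread from 4.79 to 7.62 over the HCN4FEA arrays on probe set 17396152, Car4 was tightly grouped in both genotypes, and WT 3 was the highest array for Car2 and Car8.

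Car4, a carbonic anhydrase that is anchored to the outer face of the plasma membrane and known from capillary endothelium and from the surface membrane of muscle cells, was the most even of the members with a difference. It had log2 values of 3.78, 3.66 and 3.65 on HCN4FEA 1, 2 and 3, against 4.28, 4.44 and 4.27 on WT 1, 2 and 3 (probe set 17254508). The groups did not overlap, with 0.49 between the nearest arrays, which exceeds the range of 0.13 within HCN4FEA and of 0.18 within WT. The mean was 3.70 ± 0.07 in HCN4FEA and 4.33 ± 0.10 in WT (SD, n = 3 each), a log2 difference of -0.63 or 64.5% of the WT signal. With each array left out in turn, the difference stayed between -0.67 and -0.58. Unlike Car3, Car4 did not single out HCN4FEA 2, which lay 0.01 above the lowest HCN4FEA array.

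Car2, the cytosolic carbonic anhydrase of high activity found in red cells, kidney and osteoclasts, overlapped between the genotypes. Its log2 values were 3.07, 3.65 and 3.37 on HCN4FEA 1, 2 and 3, against 3.07, 2.93 and 4.05 on WT 1, 2 and 3 (probe set 17396162). WT 3 was the highest of the 6 arrays and WT 2 the lowest. The mean was 3.36 ± 0.29 in HCN4FEA and 3.35 ± 0.61 in WT (SD, n = 3 each), a log2 difference of 0.01, which became 0.36 without WT 3 and -0.20 without WT 2.

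Car8, which has no hydratase activity and is known in cerebellar Purkinje cells as a binding partner of the inositol trisphosphate receptor, overlapped too. Its log2 values were 5.80, 5.77 and 5.75 on HCN4FEA 1, 2 and 3, against 5.30, 5.39 and 5.98 on WT 1, 2 and 3 (probe set 17423121). The HCN4FEA arrays lay within 0.05 of each other, between the lower pair of WT arrays and WT 3. The mean was 5.77 ± 0.03 in HCN4FEA and 5.56 ± 0.37 in WT (SD, n = 3 each), a log2 difference of 0.21. Without WT 3 the difference was 0.43, and without WT 1 it was 0.08.

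Of the 5 probe sets of these genes, 3 lay lower in HCN4FEA without overlap, both of Car3 and that of Car4, where 4.92% of all 25341 probe sets did so. The same 3 were called lower at an unadjusted p of 0.05 by limma, against 2.71% of all probe sets, and at that p with a fold change of at least 1.5, the thresholds of the study's methods, against 0.529% of all. None was called higher. Both Car3 probe sets lost the call by the methods' t-test and without WT 2, and 17404191 also without WT 1, while Car4 kept the call on p and missed the 1.5-fold change without WT 2 (-0.58). Because this contrast chose the genes, these shares carry no weight as a result. After Benjamini-Hochberg adjustment 0 of the 25341 probe sets passed by limma, the smallest adjusted p from limma being 0.724. At an unadjusted p under 0.05, limma gave 1547 probe sets and the methods' t-test gave 1021.

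The rest of the family was described from a list of the other mouse carbonic anhydrases. Of 11 genes, 10 had a probe set of their own, and Car5a, whose probe set carries a second symbol, was not measured. At an unadjusted p of 0.05 by limma 2 of the 10 were lower, Car5b and Car9, 0 were higher and 8 did not pass, where 6.10% of all probe sets passed in either direction. The median log2 difference over the 10 genes was -0.02, beside 0.01 over all probe sets tested. The lists were drawn up with earlier results of these data known, so these counts are a description of the family as well.

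Car5b, one of the mitochondrial carbonic anhydrases, had log2 values of 4.47, 3.97 and 4.39 on HCN4FEA 1, 2 and 3, against 5.19, 5.16 and 4.58 on WT 1, 2 and 3. The highest HCN4FEA array lay just below WT 3, the lowest WT array. The mean was 4.27 ± 0.27 in HCN4FEA and 4.97 ± 0.34 in WT (SD, n = 3 each), a log2 difference of -0.70 (95% confidence interval -1.17 to -0.23, adjusted p = 0.778 from limma). With each array left out in turn it ran from -0.90 to -0.55. Car5b was called at an unadjusted p of 0.05 by limma whichever of the 6 arrays was omitted, but not by the methods' t-test.

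Car9, a transmembrane carbonic anhydrase known to be induced by low oxygen, has 2 probe sets. On the brighter one, 17424651, it had log2 values of 2.68, 3.11 and 3.09 on HCN4FEA 1, 2 and 3, against 3.41, 3.30 and 3.27 on WT 1, 2 and 3, a log2 difference of -0.37 (interval -0.70 to -0.04, adjusted p = 0.804 from limma). On the dimmer one, 17413352, which exceeded the receptor percentile on only 2 of the 6 arrays, the difference was 0.01 with overlapping genotypes. The brighter probe set lost its call when HCN4FEA 1 (-0.23), WT 1 (-0.33) or WT 2 (-0.38) was omitted, and it was not called by the methods' t-test.

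By site of action, no class with more than 1 measured member differed throughout. Of the 5 cytosolic enzymes Car3 alone had a large difference. Car1 was at -0.08, Car2 at 0.01, Car7, known from brain, at 0.26 and Car13 at 0.12. Of the 5 measured membrane-bound or secreted enzymes, Car4 and the brighter probe set of Car9 were lower, while the salivary enzyme Car6 was at 0.18, Car12 at -0.07 and Car15 at 0.02. Of the 3 related proteins without hydratase activity, Car8 was at 0.21, Car10 at 0.04 and Car11 at -0.21 (interval -0.46 to 0.04, adjusted p = 0.860 from limma), the last without overlap between genotypes. Car1, Car6, Car10 and Car12 did not exceed the receptor percentile of 2.53 on any array and lay at the background level. In the whole family, 14 of 16 genes were measured and 10 of the 14 had differences of less than 0.3 in either direction. These 10 include Car1, Car6, Car10 and Car12 at the background level. The share of all probe sets with differences this small is not given here, so the count is not read as a result.

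**Figure D2:**
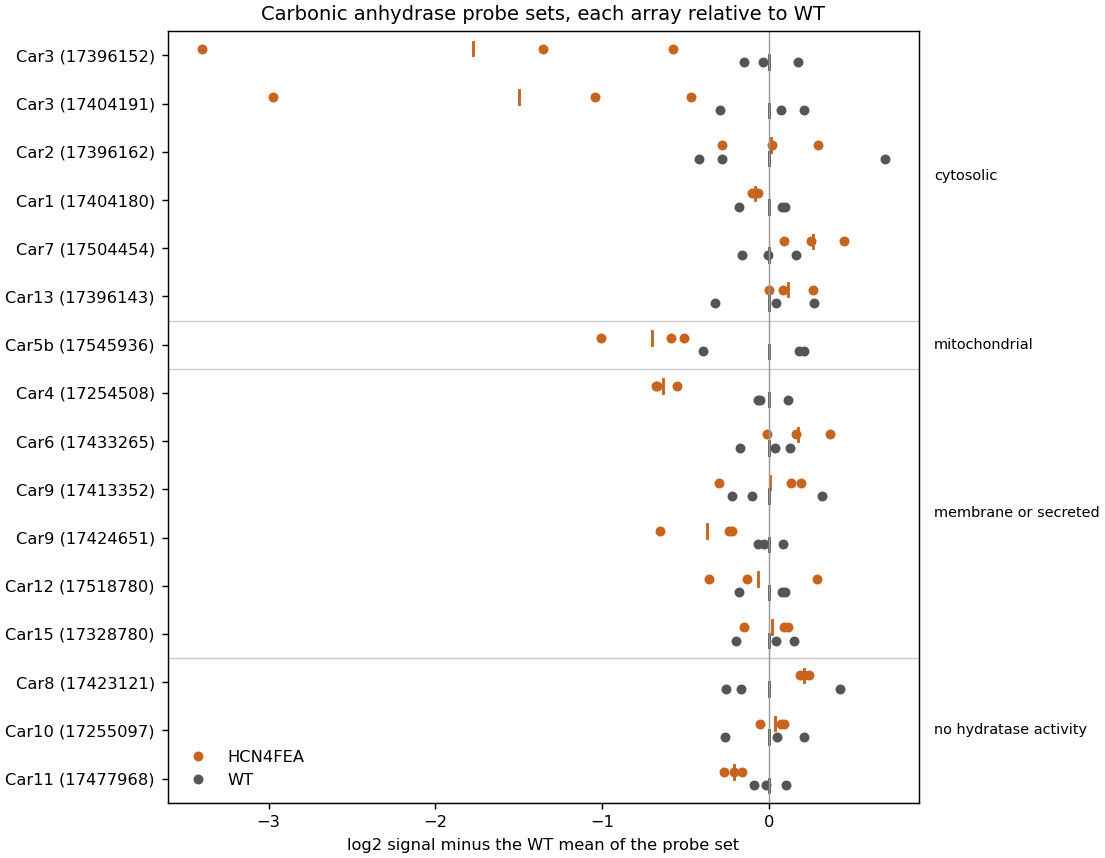
Log2 signal of each array minus the WT mean of the same probe set (horizontal axis) for 16 carbonic anhydrase probe sets, sorted by where the protein works. Orange points are HCN4FEA arrays, grey points WT arrays and short vertical bars the means of 3 arrays. The 2 Car3 probe sets reach -3.40 and -2.97 on HCN4FEA 2, the HCN4FEA points of Car4, Car5b, Car11 and 1 Car9 probe set lie left of all their WT points, and most other probe sets overlap around 0.

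Car3 lies in a run of carbonic anhydrase genes on chromosome 3. In the RefSeq annotation of the mouse (assembly GRCm38.p6) the order is Car13, Car1, Car3 and Car2, with 3 other annotated genes and 0 other protein-coding genes in between. Only Car3 of these neighbours had a large difference. Its 2 probe sets were at -1.78 and -1.49, while Car13 was at 0.12, Car1, at the background level, at -0.08 and Car2 at 0.01. Car4 lies on chromosome 11, Car8 on chromosome 4 and Car5b on chromosome X.

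The patterns across the 6 arrays were then compared with those of other genes, as the root mean square (RMS) difference between centred log2 values. For each member with an RMS of at least 0.3, the 5 nearest of the 8177 brighter probe sets were taken. They are a description over 6 arrays and include the genotype contrast. Picking genes by this match favours those that share a member's highest and lowest arrays and its order of genotypes. For the brighter Car3 probe set the nearest was Cidec, a protein of the fat cell's lipid droplet, at an RMS difference of 0.29. Next came Elovl6, which elongates fatty acids, at 0.46, the lipid droplet protein Plin1 at 0.52, the fat hormone adiponectin (Adipoq) at 0.52 and resistin (Retn), another fat hormone, at 0.54. Each of these 5 genes had its lowest value on HCN4FEA 2, which the match with Car3 favours.

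Cidec had log2 values of 4.38, 2.75 and 4.59 on HCN4FEA 1, 2 and 3, against 5.57, 5.71 and 5.68 on WT 1, 2 and 3. As for Car3, HCN4FEA 2 was far below its fellow arrays and the WT values were close together. Adipoq had 3.93, 2.82 and 3.63 on HCN4FEA 1, 2 and 3, against 4.81, 4.63 and 4.69 on WT 1, 2 and 3. Elovl6 had 4.91, 2.33 and 4.55 on HCN4FEA 1, 2 and 3, against 5.72, 4.59 and 5.35 on WT 1, 2 and 3, so that its genotypes overlapped. Those of Retn overlapped as well, with HCN4FEA 1 at 5.60 and WT 3 at 5.08.

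Of 27 adipocyte markers, 25 were measured, and 8 of these were lower, 0 were higher and 17 did not pass an unadjusted p of 0.05 by limma, where 2.71% of all probe sets were lower. The median log2 difference over the 25 was -0.31, beside 0.01 over all probe sets tested. The lower ones include Cidec at -1.75, Adipoq at -1.25 and Plin1 at -1.19. Cidec was not called by the methods' t-test, and results of that test for Adipoq and Plin1 are not given here. The list mean was 5.10, 4.70 and 5.12 on HCN4FEA 1, 2 and 3, against 5.57, 5.45 and 5.35 on WT 1, 2 and 3. The summed linear signal ran from 2991 to 3294 in HCN4FEA and from 3253 to 3926 in WT, and 1 marker, Lep, stayed at or below the receptor percentile on all arrays. HCN4FEA 2 was the lowest of the 6 arrays for 13 of the 25 markers, where it was the lowest for 13.9% of all probe sets tested. It was also the lowest for 4 of 11 pacemaker and 5 of 15 neuron markers, but for 1 of 18 endothelial and 0 of 12 atrial cardiomyocyte markers. The brightest adipocyte markers were not called. Fabp4, Lpl and Pnpla2, which are among the 4 brightest of the list and are made by other cells as well, had differences of -0.06, -0.04 and 0.03, and Scd1, the fourth, had -0.32. The part of the adipocyte transcripts in the Car3 values was not tested.

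Skeletal muscle was followed in the same way, with a list made up mostly of genes of fast fibres. Of 20 markers, all measured, 0 were lower, 3 were higher (Tnnt3, Casq1 and Acta1, which code for proteins of the contractile apparatus and the calcium store) and 17 did not pass, where 6.10% of all probe sets passed in either direction, and the median log2 difference was 0.08. Of the troponins of slow fibres, Tnnt1 averaged 4.08 in HCN4FEA and 4.14 in WT, and Tnni1 averaged 3.23 in HCN4FEA and 3.13 in WT. The list mean was 3.44, 3.29 and 3.29 on HCN4FEA 1, 2 and 3, against 3.06, 3.18 and 3.21 on WT 1, 2 and 3, and the summed linear signal ran from 677 to 870 in HCN4FEA and from 760 to 805 in WT. The highest marker, the creatine kinase Ckm, which heart muscle also makes, was at 8.92 in HCN4FEA and 9.16 in WT. Of the 20 markers 7 stayed at or below the receptor percentile on all arrays.

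**Figure D3:**
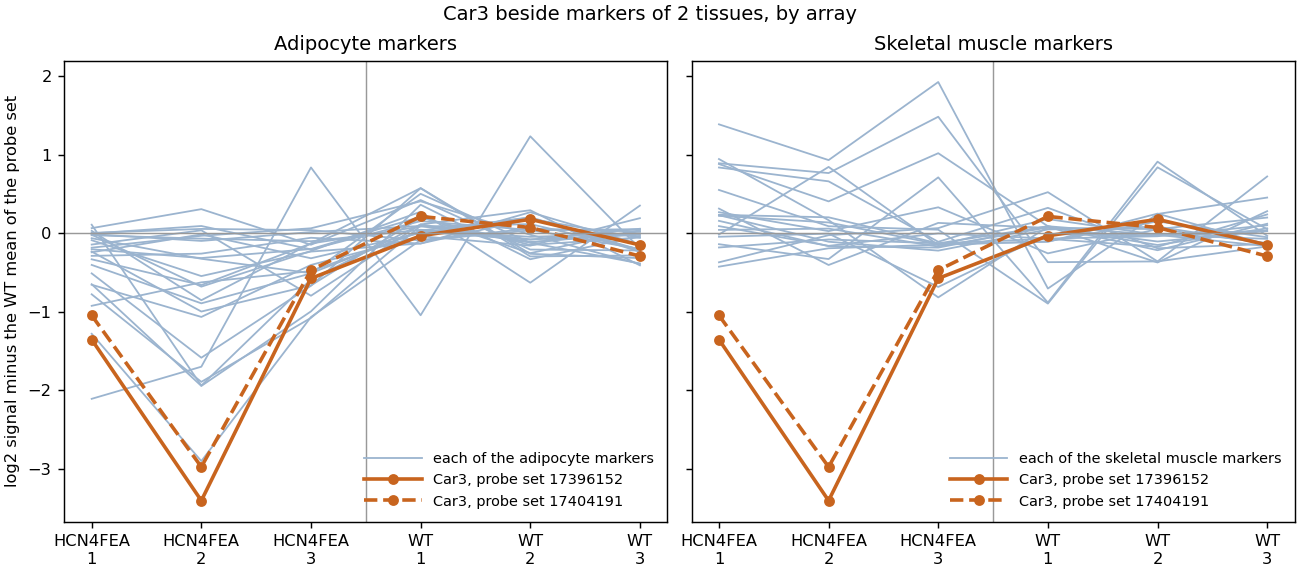
Log2 signal minus the WT mean of each probe set (vertical axis) on the 6 arrays (horizontal axis), for both Car3 probe sets (orange) and for each of 25 adipocyte markers (left) and 20 skeletal muscle markers (right) in blue. Lines only link the values of 1 probe set, since arrays have no order. Car3 dips to -3.40 and -2.97 on HCN4FEA 2, as Cidec does among the adipocyte markers, whereas no skeletal muscle marker dips there in this way.

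For Car4 the nearest patterns were those of Tom1, an endosomal sorting protein, at an RMS difference of 0.08 and of Mme, the membrane peptidase neprilysin, at 0.09. Cables2, H2aw and Adam19 followed at 0.14 each. Tom1 had log2 values of 3.89, 3.75 and 3.64 on HCN4FEA 1, 2 and 3, against 4.30, 4.30 and 4.27 on WT 1, 2 and 3, with all HCN4FEA arrays below all WT arrays. None of these genes belongs to the adipocyte or endothelial list. Of 18 endothelial markers, all measured, 0 were lower, 1 was higher (Vwf) and 17 did not pass an unadjusted p of 0.05 by limma, where 6.10% of all probe sets passed in either direction. Of the 18, 1 lay lower without overlap (Kdr at -0.24), where 4.92% of all probe sets did so. The median log2 difference of the list was 0.09, and its mean ran from 5.84 to 5.95 in HCN4FEA and from 5.77 to 5.99 in WT, with summed linear signals of 2031 to 2191 in HCN4FEA and 1895 to 2212 in WT. A part of single capillary types in the Car4 values was not tested.

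For Car2 the nearest were Gda, which codes for guanine deaminase, at an RMS difference of 0.09, Fcna and Ccl6, a lectin and a chemokine made by macrophages, at 0.12 and 0.14, and Zfp740 and the collagen gene Col6a2 at 0.15 and 0.16. Like Car2, all 5 were highest on WT 3, which the match favours too. Fcna had log2 values of 4.09, 4.69 and 4.53 on HCN4FEA 1, 2 and 3, against 4.04, 3.86 and 4.83 on WT 1, 2 and 3. Of 14 markers of red cells, a known source of Car2, 4 were measured. Car1, Epb42 and Slc4a1 stayed at or below the receptor percentile on all arrays, and only the transferrin receptor Tfrc, which many cells make, was bright. Car8, with an RMS of 0.24 around its own mean, was too even for such a comparison.

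Genes that carry the substrates and products of carbonic anhydrases were followed as the rest of the pathway. Of 26 bicarbonate, proton and lactate transporters and their binding partners, 24 were measured. At an unadjusted p of 0.05 by limma 0 were higher and 0 lower, against 6.10% of all probe sets, while the methods' t-test gave 1, the lactate carrier Slc16a1. The log2 differences ran from -0.08 to 0.29 with a median of 0.09, and the smallest adjusted p from limma was 0.877.

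Among the 6 brightest, basigin (Bsg), which escorts lactate carriers to the membrane, averaged 9.57 ± 0.09 in HCN4FEA and 9.59 ± 0.01 in WT (SD, n = 3 each), a log2 difference of -0.01 (interval -0.25 to 0.23). Slc16a1 averaged 7.22 ± 0.04 in HCN4FEA and 7.09 ± 0.02 in WT (SD, n = 3 each), a difference of 0.13 (interval -0.09 to 0.36) without overlap. Of the 24 genes 2 were higher without overlap, Slc16a1 and Slc9a3r2. The share of all probe sets higher in this way is not given here, so this count is not read as a result. Lower without overlap was 1 of the 24, where 4.92% of all probe sets lay lower in this way. The sodium-bicarbonate cotransporter Slc4a4 was at 0.06 (interval -0.22 to 0.35), the scaffold proteins Slc9a3r1 and Slc9a3r2 at 0.05 (-0.49 to 0.60) and 0.14 (-0.11 to 0.38), and Chp1, a calcium-binding partner of proton exchangers, at 0.10 (-0.25 to 0.45). For 16 of the 24 genes the interval left out changes of 1.5-fold or more in both directions, but 8 of these 16 exceeded the receptor percentile on no array, as did 9 of the 24 in all. Of the 10 genes whose mean was 4 or more, 6 had such an interval. For the other 4, the data leave room for larger differences, the widest interval being that of the chloride-bicarbonate exchanger Slc26a3 (0.21, -0.77 to 1.18).

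**Figure D4:**
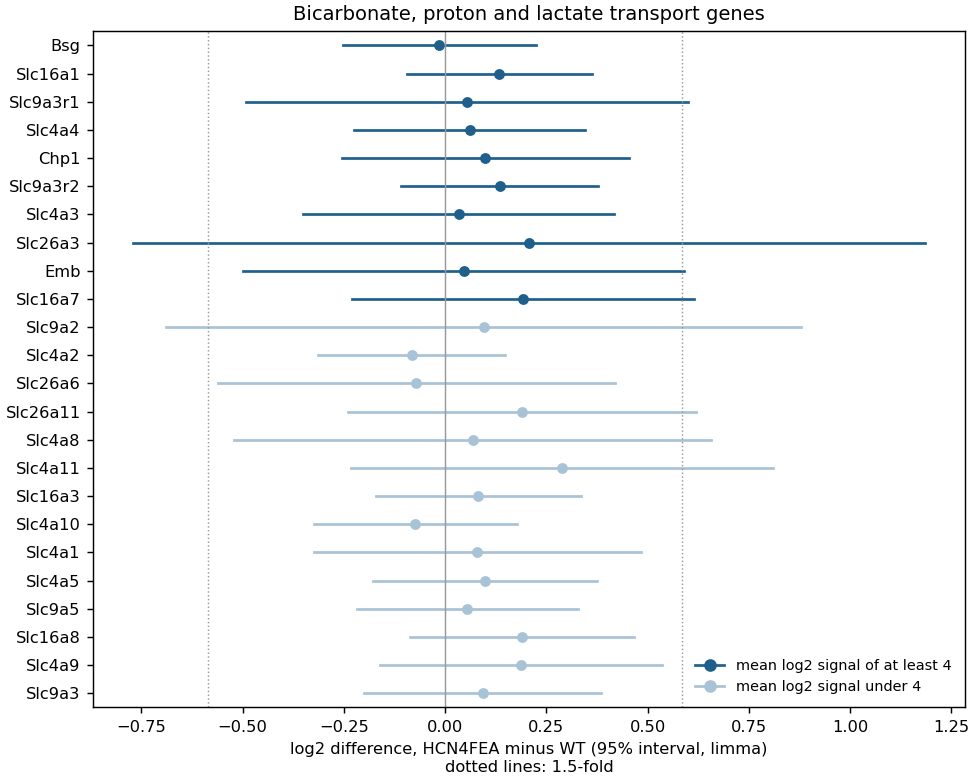
Log2 difference between HCN4FEA and WT SAN tissue (horizontal axis, points) with 95% confidence intervals from limma (lines) for 24 transport genes, ordered by mean signal from the top. Dark symbols have a mean of 4 or more, and dotted lines mark 1.5-fold. All 24 intervals include 0, and that of Slc26a3 is the widest.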

How the data were processed

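RNA of HCN4FEA and WT SAN tissue was hybridised to 3 Affymetrix mouse gene arrays each after whole transcript sense labelling. Per the methods, RMA normalisation was run in Expression Console 1.0, and the authors deposited 1 log2 signal per probe set, which was used without further scaling. RMA sets all arrays to one distribution, so a change shared by most transcripts would not be seen. Gene symbols came from the platform annotation. Of 41345 probe sets, 23521 have 1 symbol, 1820 have several and 16004 are unnamed here. The 25341 with a symbol were fitted with limma 3.58.1 in R 4.3.3 (HCN4FEA minus WT, no replicate block, 3.85 prior degrees of freedom) and adjusted by Benjamini-Hochberg. Welch's test, as named by the methods, is called the methods' t-test. A gene with several probe sets was counted on the one with the highest mean.

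Named were all members and other carbonic anhydrases, the 6 brightest transport genes and any past an unadjusted p of 0.05, up to 4 of the brightest genes of a marker list, and the 5 nearest patterns. Lep, Casq1, Tnnt1, Tnni1, Kdr and the genes named for single alternatives were picked after their values were seen. Members and lists were chosen with earlier results of these data known. The number of arrays limits the precision. Car14 and Car5a were not analysed here. Plots used Python 3.11.15 and matplotlib 3.10.9.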

Additional observations from a re-analysis of the deposited data

How the results depend on the processing

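The log2 differences of Car2, Car3, Car4 and Car8 were recomputed under 11 alternatives each. These were arrays centred on their medians, the mean over probe sets, medians of genotypes and each array left out. HCN4FEA 3 and WT 1 were also left out together, and same-numbered arrays were paired. Pairing cannot change a difference of means and left them at 0.01, -1.49, -0.63 and 0.21. The mean over probe sets cannot change Car2, Car4 or Car8, which have 1 probe set each. Car3 ran from -2.01 to -0.76, Car4 from -0.67 to -0.58, Car8 from 0.08 to 0.43 and Car2, below 0 in 5 of the 11, from -0.20 to 0.36. Car4 stayed past an unadjusted p of 0.05 throughout. Both Car3 probe sets missed it by the methods' t-test, with a variance trend and without WT 2, and 17404191 also without WT 1. Car8 passed it without WT 3. Because this contrast chose the members, these calls carry no weight as a result.

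Counts at an unadjusted p of 0.05, 1547 in all, were 1021 by the methods' t-test, 2445 over all probe sets and 637 over those with a mean of at least 4. With a fold change of at least 1.5 the 287 became 105, 985 and 111, and 305 to 546 with each array left out, the highest without WT 3. The 2 other carbonic anhydrases became 1 by the methods' t-test (Car11), with the replicate block, with a variance trend and with a mean of at least 4 (Car5b each), and 1 to 3 with each array left out (1 without HCN4FEA 1, WT 1 or WT 2). The 0 transport genes became 1 by the methods' t-test, 0 to 1 with each array left out (Slc4a11 at 0.57 without WT 3), and 1 without HCN4FEA 3 and WT 1 (Slc4a9 at 0.40). Car14 had no value under any setting. The replicate block otherwise gave 1587 and 330 probe sets, and the deviations of same-numbered arrays correlated at -0.05, 0.09 and -0.03, so the numbers were not taken as pairs. The causes were not tested.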
